A study of Saccharomyces cerevisiae with 6 samples.

Results

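J-domain proteins (Hsp40 proteins) are the partners that put Hsp70 chaperones to work. Through the J domain, whose histidine-proline-aspartate motif touches Hsp70, they stimulate ATP hydrolysis by Hsp70, which closes the chaperone on its client, and many of them bring the client along. In yeast cytosol the class A proteins, built like bacterial DnaJ with a zinc-binding domain, and the class B proteins, with a glycine- and phenylalanine-rich region but no zinc-binding domain, serve general folding, refolding and protein targeting, while class C proteins share only the J domain and have narrower duties. The genes described here are the 10 named J-domain co-chaperones of the cytosol, taken by gene symbol from the platform annotation, out of 5650 named genes on the arrays. Each of the 10 was read by 1 probe.

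By known structure YDJ1 (YNL064C), APJ1 (YNL077W) and XDJ1 (YLR090W) code for class A proteins, SIS1 (YNL007C), CAJ1 (YER048C), DJP1 (YIR004W) and HLJ1 (YMR161W) for class B proteins, and JJJ1 (YNL227C), JJJ2 (YJL162C) and JJJ3 (YJR097W) for class C proteins. HLJ1 sits in the membrane of the endoplasmic reticulum (ER) with its J domain on the cytosolic side, which is why it is counted with the cytosol.

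The cultures were of Saccharomyces cerevisiae W303-1A, a haploid laboratory strain of mating type MATa, grown in YEPD, a rich glucose medium, at 30 °C, with 3 cultures in 6.5% (v/v) ethanol and 3 in 0% ethanol. All 6 cultures carried the strain's markers leu2-3, 122 and trp1-1, together with can1-100 and ura 3-1, and also ade2-1 with his3-11, 15. They were started from 1 unstressed parent culture in late exponential phase, and the time in ethanol is not given in the sources used here. On 2-colour arrays the RNA of each culture was set against RNA pooled from the 0% cultures, with the pool in the red channel on the dye-swapped array of culture 1 in each group and the culture in the red channel on the others.

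Values are given as log2 of culture over pool, so they show how a gene differs between cultures and not how abundant its RNA is, and no gene's level can be set against another's. The sources used here do not state which dye is on top of the ratio. Red over green was taken as likely, in part because known stress genes are then higher in ethanol, and the reverse order would turn each sign round. The rise of any stress or heat shock gene below, the SSA genes and small heat shock proteins included, is therefore no independent result as to direction. A change is the mean of the 6.5% cultures minus that of the 0% cultures, followed by limma's SE, and each group has 3 arrays, whose number limits the precision. A gene was called at an adjusted p below 0.05 over all 6345 features. Both dye-swapped arrays stood apart from their groups. Across probes, the dye-swapped 6.5% array had r = −0.06 and −0.10 against the other 6.5% arrays, which correlated at 0.85 with each other, and the dye-swapped 0% array had r = −0.38 and −0.44 against the other 0% arrays, which correlated at 0.67. The 2 dye-swapped arrays correlated at 0.42. In the fit with a dye term a change taken without either dye-swapped array equals the change over cultures 2 and 3, which is given with each gene it concerns. Over all features 1150 were called, or 18.1%, with 7.69% higher and 10.4% lower in ethanol. With the replicate number as a block in place of the dye term, 607 were called. Without 6.5% culture 2 limma called 2 features and without 6.5% culture 3 it called 51, so nearly every call was lost in those fits. Of 7 a-cell marker genes 5 fell, and of 4 alpha-cell markers 0 were called (1 at an unadjusted p under 0.05). These are ratios, which do not show whether a marker was present.

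Few of the J-domain genes passed the test between 6.5% and 0% ethanol. Of the 10, 1 fell, JJJ1, and 0 rose by limma, against 10.4% of all features called lower and 7.69% called higher. JJJ1 was also the only one with an unadjusted p under 0.05. The changes ran from −1.30 (JJJ1) to 0.54 (JJJ3), 7 above 0 and 3 below, with a median of 0.07 beside a median of 0.04 over all features. With a drift of the ratios along probe numbers taken out, these medians were 0.38 and 0.03. The share of members called lies near the background and says nothing particular about them. The arrays could not show small changes. In data simulated for this comparison with 6345 features, 200 of them changed, 10.1% of features changed by 1 log2 unit were recovered, 88.8% at 2 and 98.4% at 3. The real data gave 1150 calls, so the adjusted threshold differs there and these shares are only a guide. The 95% intervals therefore carry more than the missing calls. In bulk RNA of a culture, fewer cells that express a gene and less of its RNA per cell cannot be told apart.

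**Figure D1:**
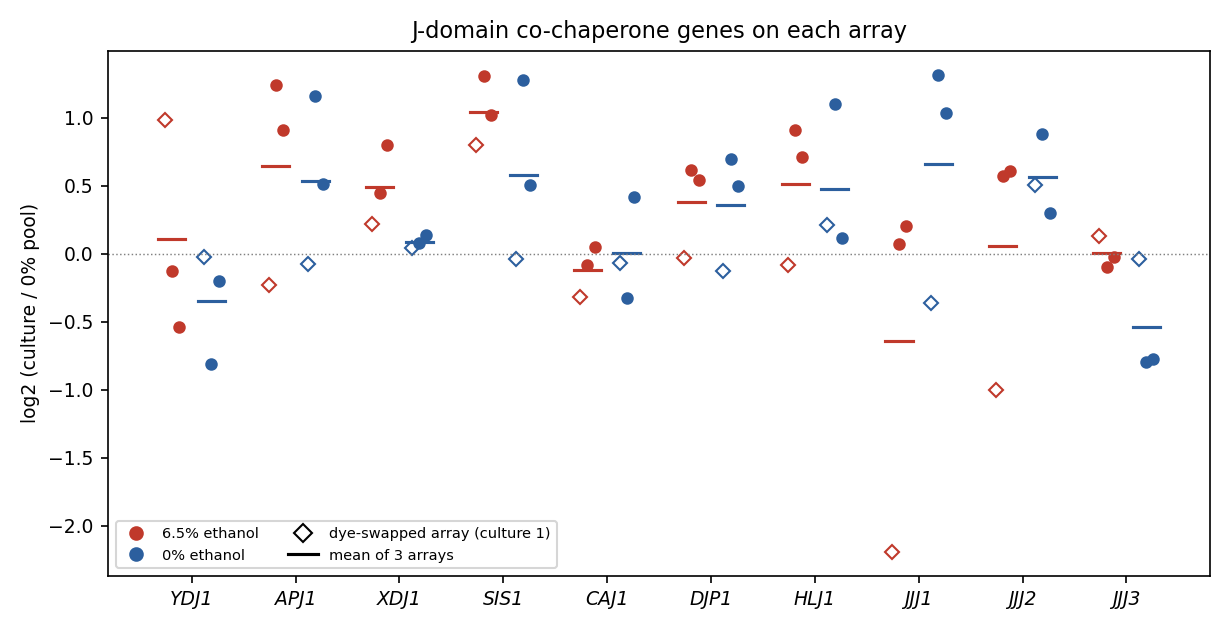
Log2 ratio of culture over pool (vertical axis) for the 10 genes on each array, 6.5% ethanol on the left and 0% ethanol on the right of each gene, with open diamonds for the dye-swapped arrays and a bar for the mean of 3 arrays. On JJJ1 the dye-swapped 6.5% array read −2.19, the lowest value of the plot, and the groups overlap for every gene but XDJ1.

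Among the class A genes, YDJ1 codes for the main general J protein of the cytosol, a farnesylated partner of the Ssa type of Hsp70 in folding and in protein transport into organelles. YDJ1 read 0.98, −0.12 and −0.54 in 6.5% cultures 1, 2 and 3, against −0.02, −0.81 and −0.20 in 0% cultures 1, 2 and 3. The dye-swapped 6.5% array was the highest of the 6, and the 6.5% and 0% values overlapped. The change was 0.45 ± 0.32 (95% interval −0.31 to 1.22, adjusted p = 0.350 by limma). It was 1.01 between the dye-swapped arrays and 0.18 over cultures 2 and 3. The interval ran from −0.66 to 1.02 without either dye-swapped array and from −0.04 to 1.59 with the probe-number drift taken out.

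APJ1 codes for a J protein found mostly in the nucleus that works on SUMO-tagged and aggregated proteins. It read −0.23, 1.24 and 0.91 in 6.5% cultures 1, 2 and 3, and −0.08, 1.16 and 0.51 in 0% cultures 1, 2 and 3. In both groups culture 1, on the dye-swapped array, was the lowest. The change of APJ1 was 0.11 ± 0.29 (95% interval −0.58 to 0.80, adjusted p = 0.820 by limma), while its dye term, the deviation of each dye orientation from their midpoint, was 0.55 (adjusted p = 0.0336). The largest differences among its 6 values lay between the dye orientations.

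XDJ1, whose protein has been linked to import into mitochondria, was the member whose groups did not overlap. It read 0.22, 0.45 and 0.80 in 6.5% cultures 1, 2 and 3, against 0.04, 0.08 and 0.14 in 0% cultures 1, 2 and 3. All 6.5% values lay above all 0% values, as they did for 11.3% of all features (25.3% had no overlap in either direction), and the 0% values were close together. The change was 0.40 ± 0.25 (95% interval −0.20 to 1.00, adjusted p = 0.298 by limma), or 1.32-fold, and was not called. The direction was the same in each dye orientation, at 0.18 between the dye-swapped arrays and 0.52 over cultures 2 and 3.

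Of the class B genes, SIS1 codes for the essential J protein that passes aggregated proteins and prion fibres to Ssa Hsp70 and the disaggregase Hsp104, and that holds back heat shock factor in unstressed cells. SIS1 read 0.80, 1.31 and 1.02 in 6.5% cultures 1, 2 and 3, against −0.04, 1.28 and 0.50 in 0% cultures 1, 2 and 3. The 6.5% cultures were all well above the pool, but 0% culture 2 was as high as they were, although its own RNA was part of the pool. The change was 0.46 ± 0.31 (95% interval −0.28 to 1.21, adjusted p = 0.327 by limma). Set against the pool alone, without the 0% arrays, SIS1 lay 0.98 above it and was called (adjusted p = 0.00798), but that comparison leaves out the spread of the 0% arrays. Without 0% culture 2 the change was 0.74 (adjusted p = 0.141 by limma), and without 0% culture 3 it was 0.30 (adjusted p = 0.581 by limma). Between the dye-swapped arrays it was 0.84, and over cultures 2 and 3 it was 0.28 (95% interval −0.60 to 1.15).

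CAJ1, a J protein named for its relation to calmodulin, read −0.32, −0.09 and 0.05 in 6.5% cultures 1, 2 and 3, and −0.07, −0.33 and 0.41 in 0% cultures 1, 2 and 3. DJP1, which serves protein import into peroxisomes and the delivery of mitochondrial precursors from the ER surface, read −0.03, 0.62 and 0.54 in 6.5% cultures 1, 2 and 3, and −0.13, 0.70 and 0.50 in 0% cultures 1, 2 and 3. DJP1 had nearly the same 3 values in each group, the dye-swapped array being the low one both times. HLJ1, which helps to degrade membrane proteins of the ER, read −0.09, 0.91 and 0.71 in 6.5% cultures 1, 2 and 3, and 0.21, 1.10 and 0.12 in 0% cultures 1, 2 and 3. The changes of these 3 genes were −0.12 ± 0.29 for CAJ1, 0.02 ± 0.24 for DJP1 and 0.03 ± 0.33 for HLJ1. Their 95% intervals lay between −0.81 and 0.83, but reached −1.04 for CAJ1 and 1.08 for HLJ1 with the probe-number drift taken out, and 1.16 for HLJ1 without either dye-swapped array. Adjusted p-values were 0.793, 0.963 and 0.953 by limma.

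JJJ1 of class C was the gene that passed. Its protein binds the pre-60S ribosomal particle in the cytosol and, with Rei1 and Ssa Hsp70, releases the export factor Arx1 so that it can return to the nucleus. JJJ1 read −2.19, 0.07 and 0.20 in 6.5% cultures 1, 2 and 3, against −0.36, 1.32 and 1.03 in 0% cultures 1, 2 and 3. Pooled over dye orientations the groups overlap. Within an orientation there are only 1 or 2 arrays per group, too few for a separation of the groups to be read. The change was −1.30 ± 0.28, or 2.47-fold lower (95% interval −1.97 to −0.63, adjusted p = 0.0258 by limma), with −1.83 between the dye-swapped arrays and −1.04 over cultures 2 and 3. It stood at the 7.58th percentile of changes over all features.

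The call of JJJ1 was lost under many other settings. It was kept in 5 of 15 with a test, among them quantile normalization (adjusted p = 0.0452 by limma) and the fit without 0% culture 3. Taking each probe as a feature, or setting values at the limits to missing, also kept it but hardly differs from the main fit. The remaining fit set the 6.5% arrays against the pool alone, which is another comparison than 6.5% minus 0% ethanol. The dye term of JJJ1 was 0.97 (adjusted p = 0.00622), and without that term the adjusted p was 0.457. With the replicate block it was 0.0589, and 0.0538 once a drift of the ratios with probe number was taken out. Of 6 fits without 1 array JJJ1 was called in 1, that without 0% culture 3. Without either dye-swapped array the adjusted p was 0.0531, and without 0% culture 2, 6.5% culture 2 or 6.5% culture 3 it was 0.0709, 0.110 or 0.0950. The change kept its sign in all 16 alternatives, from −1.83 to −0.90.

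JJJ2, a class C gene whose function is poorly known, read −1.01, 0.57 and 0.61 in 6.5% cultures 1, 2 and 3, against 0.51, 0.88 and 0.30 in 0% cultures 1, 2 and 3. Its change of −0.51 ± 0.38 (95% interval −1.41 to 0.40, adjusted p = 0.378 by limma) lay in the dye-swapped arrays, being −1.51 between the dye-swapped arrays and −0.00 over cultures 2 and 3. JJJ3, also called DPH4, takes part in the synthesis of diphthamide, the modified histidine of elongation factor 2. It read 0.13, −0.10 and −0.02 in 6.5% cultures 1, 2 and 3, against −0.04, −0.80 and −0.77 in 0% cultures 1, 2 and 3. The change of JJJ3 was 0.54 ± 0.25 (95% interval −0.06 to 1.14, adjusted p = 0.181 by limma), at 0.17 between the dye-swapped arrays and 0.72 over cultures 2 and 3. Here the difference lay in 0% cultures 2 and 3, which were below the pool, while the 6.5% cultures were close to it.

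**Figure D2:**
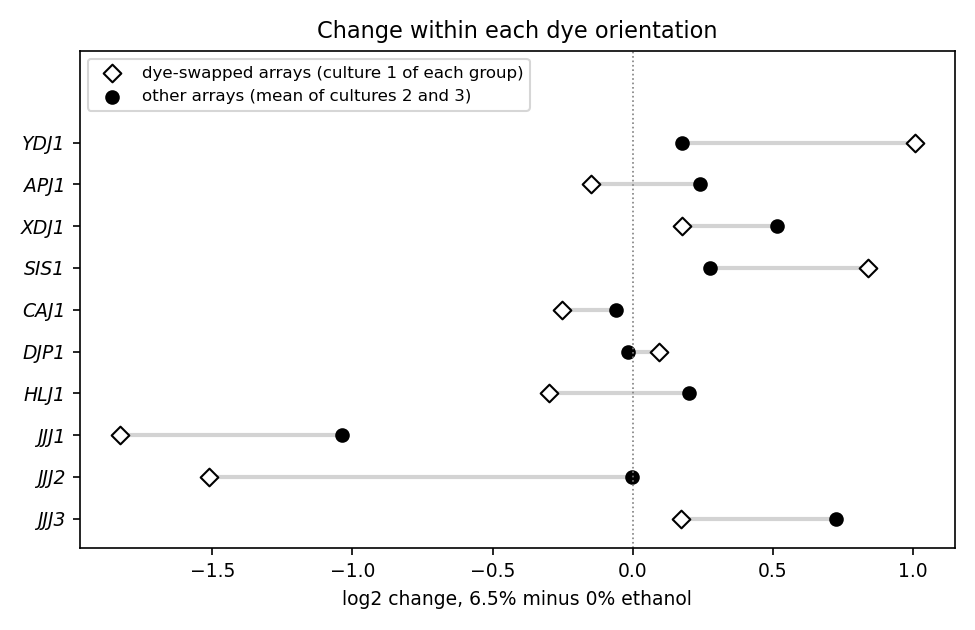
Log2 change of each gene, 6.5% minus 0% ethanol (horizontal axis), between the dye-swapped arrays (open diamonds, 1 array per group) and over the other arrays (filled circles, mean of 2 arrays per group). JJJ1 is below 0 in both, at −1.83 and −1.04, while JJJ2 is at −1.51 in the first only, and YDJ1 is at 1.01 and 0.18.

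The 2 dye orientations gave a change of the same sign for 7 of the 10 genes, against 66.6% of all features. Those of opposite sign were APJ1, DJP1 and HLJ1, each within 0.30 of 0 in both orientations. The dye term was called for 2 of the 10, JJJ1 and APJ1, and for 34.0% of all features.

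Within each array the deposited ratios drifted with probe number, and not alike on all arrays. The probes of HLJ1, SIS1, YDJ1, APJ1 and JJJ1, numbered from 4651 to 5056, lay close together in that order, and the trend shifted the changes of these 5 genes by −0.33 to −0.29. The change of CAJ1, probe number 1683, was shifted by 0.23. With the trend removed, YDJ1 was at 0.77 (95% interval −0.04 to 1.59, adjusted p = 0.177) and SIS1 at 0.78 (95% interval 0.03 to 1.52, adjusted p = 0.144). APJ1 was then at 0.43, HLJ1 at 0.33 and CAJ1 at −0.35. XDJ1 was at 0.57 and JJJ3 at 0.60 (95% interval 0.03 to 1.17, adjusted p = 0.141). JJJ1 was at −0.97 (95% interval −1.59 to −0.35) and JJJ2 at −0.46. By limma 0 of the 10 were then called, against 13.2% of all features (5.91% higher and 7.31% lower), with SIS1, JJJ1 and JJJ3 at an unadjusted p under 0.05. The median of the 10 was 0.38, beside 0.03 over all features.

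**Figure D3:**
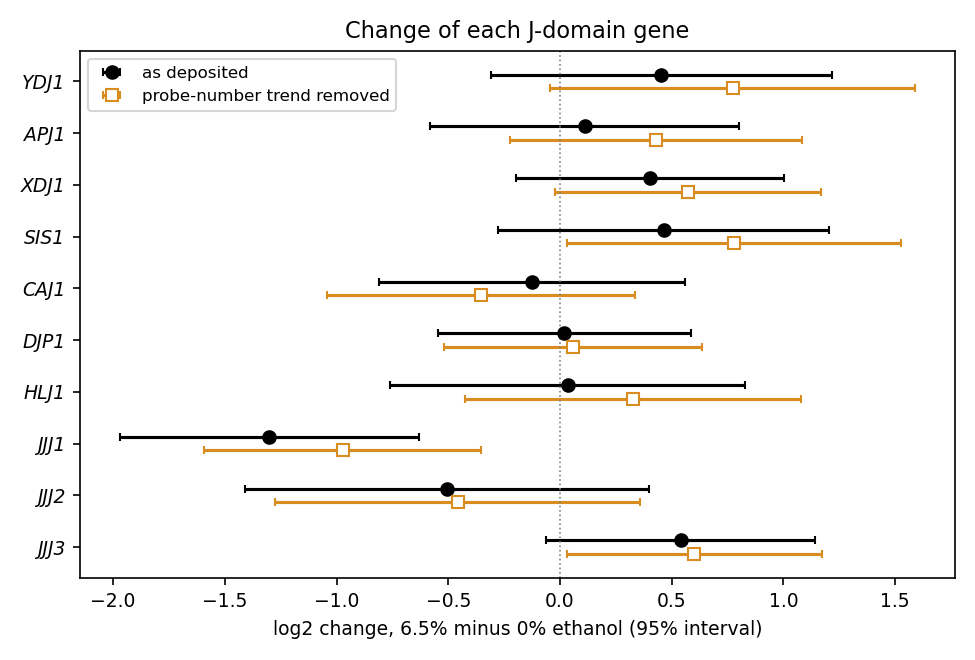
Log2 change of each gene, 6.5% minus 0% ethanol, with its 95% interval (horizontal axis), as deposited (filled circles) and after removal of the probe-number trend (open squares). JJJ1 lies below 0 in both, at −1.30 and −0.97, while YDJ1 is at 0.45 and 0.77 and SIS1 at 0.46 and 0.78.

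All genes of cytosolic Hsp70 proteins passed the test. Ssa1 to Ssa4 are the general Hsp70 proteins of the cytosol, Ssb1 and Ssb2 bind nascent chains at the ribosome, and Ssz1 forms the ribosome-associated complex with the J protein Zuo1. Of 7 cytosolic Hsp70 genes 4 rose and 3 fell. SSA1 read 2.40, 2.37 and 2.06 in 6.5% cultures 1, 2 and 3, against −0.29, −0.04 and −0.24 in 0% cultures 1, 2 and 3, and rose by 2.46 ± 0.25 (adjusted p = 0.00633 by limma). SSA2 rose by 1.74 ± 0.43, SSA3 by 1.97 ± 0.40 and SSA4 by 1.66 ± 0.26, with adjusted p-values of 0.0356, 0.0223 and 0.0120 by limma. The 95% interval of SSA1, 1.86 to 3.07, lay above those of its J partners YDJ1 and SIS1. With the trend removed SSA1 was at 1.95 (95% interval 1.34 to 2.56), which overlaps theirs, and the difference itself was not tested.

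On the ribosome side, SSB1 fell by 2.37 ± 0.46, SSB2 by 2.29 ± 0.38 and SSZ1 by 2.05 ± 0.28 (adjusted p = 0.0194, 0.0133 and 0.00873 by limma). The change of SSB1 was −0.91 between the dye-swapped arrays and −3.10 over cultures 2 and 3. ZUO1, the J-domain partner of Ssz1, read −1.92, −1.58 and −2.01 in 6.5% cultures 1, 2 and 3, against −0.03, −0.31 and 0.71 in 0% cultures 1, 2 and 3. It fell by 1.96 ± 0.34 (adjusted p = 0.0146 by limma), so the ribosome-bound Hsp70s and their J protein were all lower in ethanol. JJJ1 is likewise a J protein of the ribosome, but of its 60S partners ALB1 fell, by 1.92 ± 0.36 (adjusted p = 0.0169 by limma), while REI1 at −0.31 ± 0.30 and ARX1 at −0.24 ± 0.43 were not called. SSA1 and SSA2, and SSB1 and SSB2, are closely alike in sequence, so a probe may read both genes of a pair.

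These Hsp70 counts depended on single arrays and on the processing. Without either dye-swapped array all 7 genes were called, 4 higher and 3 lower. Without 0% culture 2 the counts were 2 higher and 2 lower, and without 0% culture 3 they were 3 and 2. Without 6.5% culture 3 the counts were 1 and 0, and without 6.5% culture 2, when 2 features in all were called, none of the 7 was. With the trend removed 3 were higher and 3 lower, SSA3 being at 1.47 (adjusted p = 0.0879). The counts were 1 higher and 1 lower without the dye term, and 3 and 3 with the replicate block. After scaling to equal spread they were 2 and 1, and after quantile normalization 2 and 2.

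Nucleotide exchange factors, which reopen Hsp70 after the J protein has closed it, were mixed, with 1 of 4 higher and 1 lower. SSE2, the stress-inducible Hsp110, rose by 1.42 ± 0.27 (adjusted p = 0.0189 by limma, and 0.107 with the trend removed), while SSE1, its constitutive relative, was at 0.42 ± 0.28 and FES1 at 0.31 ± 0.23. SNL1, an exchange factor anchored in the ER membrane, fell by 1.11 ± 0.26 (adjusted p = 0.0302 by limma). Without 0% culture 2, 6.5% culture 2 or 6.5% culture 3, 0 of the 4 were called by limma.

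**Figure D4:**
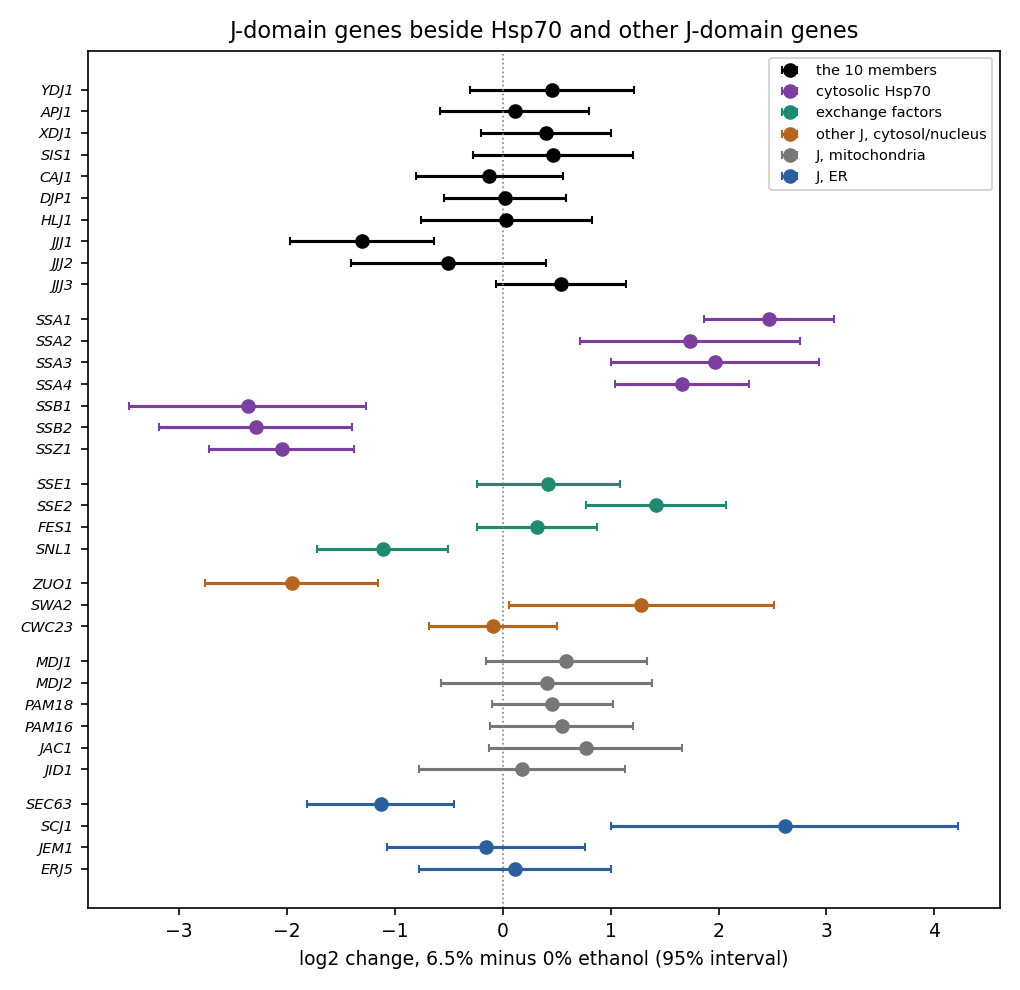
Log2 change, 6.5% minus 0% ethanol, with its 95% interval (horizontal axis) for the 10 J-domain genes, 7 cytosolic Hsp70 genes, 4 exchange factor genes and 13 genes of other J-domain proteins. SSA1 to SSA4 lie between 1.66 and 2.46, SSB1, SSB2 and SSZ1 between −2.37 and −2.05, and the 10 J-domain genes between −1.30 and 0.54.

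Of 13 genes of other J-domain and J-like proteins 1 rose and 2 fell. Besides ZUO1 these were SCJ1 and SEC63 of the ER. SCJ1, a J protein of the ER lumen that works with Kar2, rose by 2.61 ± 0.68 (adjusted p = 0.0408 by limma). Its 6.5% cultures 1, 2 and 3 read −0.64, 1.65 and 4.30, and its 0% cultures 1, 2 and 3 read −2.34, −0.04 and −0.15, a spread that makes the size uncertain. SEC63, the J protein of the translocation channel, fell by 1.13 ± 0.29 (adjusted p = 0.0383 by limma, and 0.159 with the trend removed). JEM1 was at −0.16 ± 0.39 and ERJ5 at 0.12 ± 0.38. SWA2, the auxilin that uncoats clathrin vesicles, was at 1.29 ± 0.52, with 2.87 on 6.5% culture 1 and −0.72 and −0.90 on 6.5% cultures 2 and 3. It was not called (adjusted p = 0.127 by limma), with an unadjusted p under 0.05. CWC23, a J protein of the spliceosome, was at −0.09 ± 0.25. The 6 mitochondrial genes, among them MDJ1 and PAM18, lay between 0.18 and 0.77, and 0 of the 6 were called by limma or had an unadjusted p under 0.05. Without 0% culture 2 or 3 the counts among the 13 were 0 higher and 1 lower by limma, and without 6.5% culture 2 or 3 they were 0 and 0. They were also 0 and 0 without the dye term, and 1 and 1 with the replicate block or quantile normalization. After scaling to equal spread they were 1 and 0.

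YDJ1, SIS1 and APJ1 are known targets of the heat shock factor Hsf1, and none of the 3 was called, while 8 of the 16 other Hsf1 targets measured rose and 0 fell. The median of these 16 was 1.04, in a range from −0.04 to 2.46, against 0.45 for YDJ1, 0.46 for SIS1 and 0.11 for APJ1. With the trend removed the median was 1.18, and the 3 genes were at 0.77, 0.78 and 0.43. The difference was not tested. Leading among the 16 were SSA1, then HSP78, the mitochondrial disaggregase, at 2.19 ± 0.32, and HCH1, an activator of Hsp90, at 1.79 ± 0.25 (adjusted p = 0.0101 and 0.00916 by limma). The count was 8 without either dye-swapped array, 4 without 0% culture 2, 5 without 0% culture 3, 1 without 6.5% culture 3 and 0 without 6.5% culture 2. It was 1 without the dye term and 5 with the replicate block. After scaling to equal spread it was 2, after quantile normalization 3, and with the trend removed 9. HSF1 itself was at 0.38 ± 0.36 (adjusted p = 0.486 by limma), and the stress factors MSN2 and MSN4 were at −0.80 ± 0.29 and −0.62 ± 0.25 (adjusted p = 0.0965 and 0.127 by limma). Both MSN2 and MSN4 had an unadjusted p under 0.05.

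Genes that work with Sis1 and Ydj1 in taking aggregates apart and in handing clients to Hsp90 were partly higher. Of 5 disaggregation genes 3 rose, HSP26 by 5.33 ± 0.33 and HSP42 by 1.52 ± 0.26, both small heat shock proteins, and HSP104 by 1.08 ± 0.28 (adjusted p = 0.0425 by limma). Counts were 4 of 5 without either dye-swapped array, 2 without 0% culture 2 or 3, and 1 without 6.5% culture 2 or 3. BTN2, which sorts misfolded proteins into deposits, was at 0.41 ± 0.26, and CUR1, its relative, at 1.01 ± 0.35. CUR1 was not called (adjusted p = 0.0908 by limma, unadjusted p = 0.0241), but with the trend removed it was called higher, at 1.44 (adjusted p = 0.0369 by limma). Of 12 genes of Hsp90 and its co-chaperones 3 rose, HCH1, HSP82 at 1.40 ± 0.30 and CPR6 at 1.19 ± 0.28, and 1 fell, the phosphatase gene PPT1 at −1.57 ± 0.27. STI1, which links Hsp70 to Hsp90, was at −0.04 ± 0.26 and was not called. Without 0% culture 2 the counts were 1 higher and 1 lower, and without 6.5% culture 2 or 3 none of the 12 was called. None was called without the dye term, and with the replicate block 2 were higher and 1 lower. After scaling to equal spread or quantile normalization 1 was higher and 1 lower.

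Among genes tied to a single member, few passed the test. Of 7 measured genes of diphthamide synthesis and its substrate, to which JJJ3 belongs, EFT1 and EFT2, which both code for elongation factor 2 and are so alike that a probe may read both, fell by 1.84 ± 0.34 and 1.91 ± 0.33, whereas 0 of the 5 synthesis genes were called by limma (2 at an unadjusted p under 0.05, DPH2 and DPH5). Of 11 genes of ER-associated degradation, in which HLJ1 and YDJ1 take part, DER1 rose by 1.31 ± 0.28 (adjusted p = 0.0263 by limma, and 0.164 with the trend removed). At an unadjusted p under 0.05 were 5 of the 11, DER1 and DFM1 (0.71 ± 0.24) above 0, and HRD1 (−0.72 ± 0.25), HRD3 (−0.81 ± 0.33) and UBX2 (−0.81 ± 0.30) below. Of 5 genes of farnesylation and its processing, the modification that anchors Ydj1 in membranes, 0 were called by limma (1 at an unadjusted p under 0.05). Of the 4 prion protein genes, whose fibres depend on Sis1, SUP35 was at −0.50 ± 0.25, RNQ1 at 0.17 ± 0.35, URE2 at 0.04 ± 0.30 and SWI1 at 0.65 ± 0.46, and 0 were called by limma or at an unadjusted p under 0.05.

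Likeness of pattern was measured as Pearson's r over the 6 arrays, which share the pool and the dye orientations, and is given as a description. Among 5640 other named genes the closest to YDJ1 were COX18 (r = 0.995), ARP7 (0.991) and ATG9 (0.991). Those closest to SIS1 were VAM10 (0.992), SPT21 (0.979) and BIT61 (0.968). JJJ1 was followed most closely by VRL1 (0.998), ARF3 (0.997) and FSH2 (0.997), and 261 genes exceeded 0.95 with it, against 50 for YDJ1 and 8 for SIS1. Of these 9 genes ARF3 was called, at −1.21 ± 0.26 (adjusted p = 0.0258 by limma). Among the members themselves APJ1 and DJP1 were the most alike (r = 0.95), both being low on the dye-swapped arrays of each group, and YDJ1 and JJJ2 the most opposed (r = −0.947), with the dye-swapped 6.5% array highest for YDJ1 and lowest for JJJ2.

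**Figure D5:**
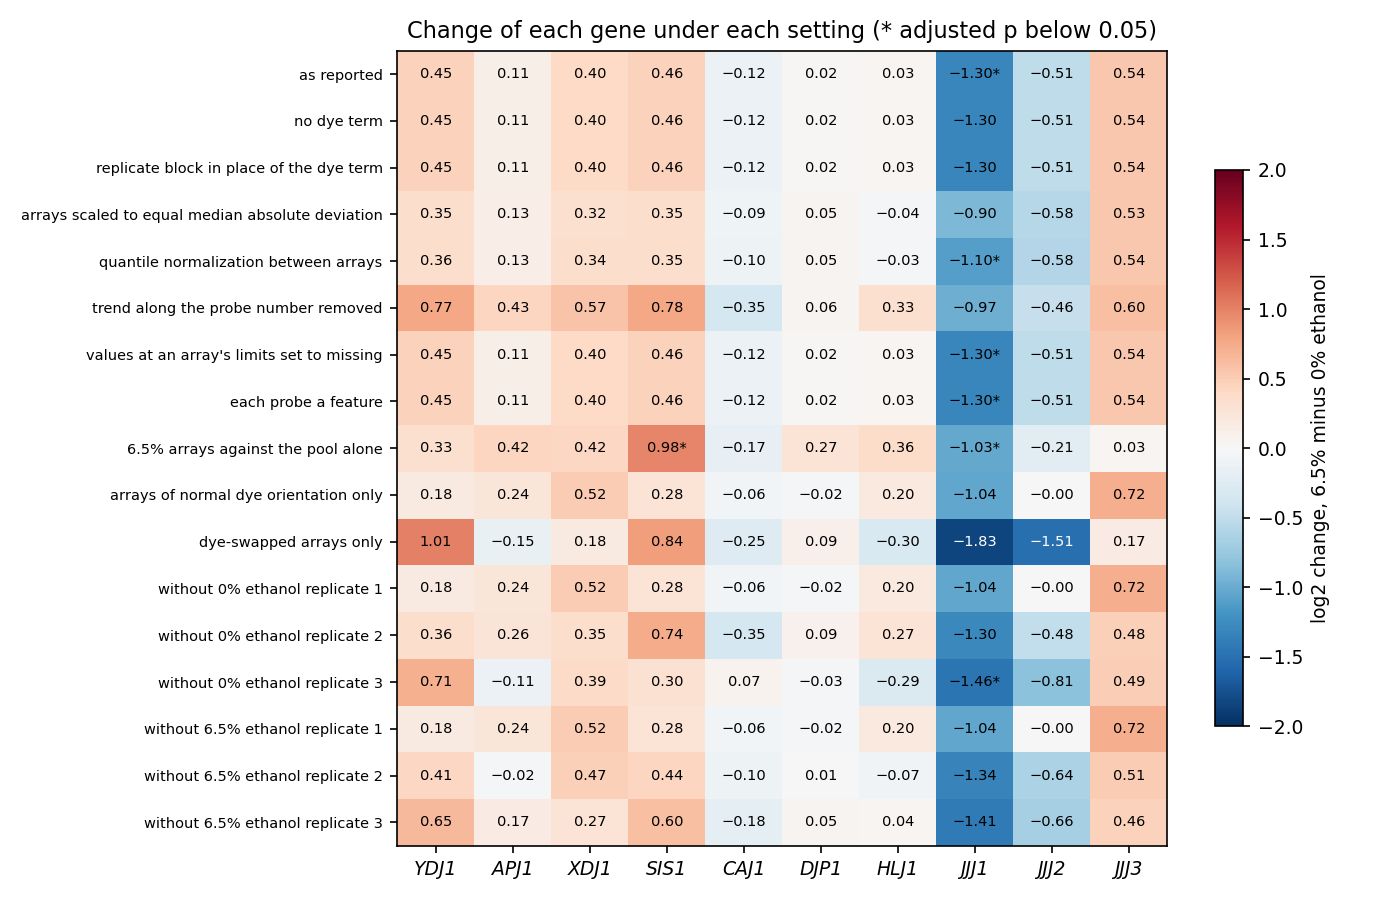
Log2 change of each gene (columns, colour scale and printed value) under the reported analysis and each of 16 alternatives (rows), with an asterisk at an adjusted p below 0.05. The row for the 6.5% arrays against the pool alone is relative to the pool and not to the 0% arrays. JJJ1 is below 0 in every row, and APJ1, CAJ1, DJP1 and HLJ1 change sign in some.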

How the data were processed

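Each of the 6 arrays compared 1 yeast culture with the pool of the 0% cultures. The authors deposited log2 ratios for 6368 probes, with no missing values. The sources used here do not give the scanner, the background correction or the normalization. Values were bounded at 6.64 on both sides. Ratios of dye-swapped arrays were multiplied by −1. Probes were named from the platform annotation through the RefSeq table of assembly R64 (5673 with 1 gene, all matched, 0 with several, 695 with none), and probes of a gene were averaged, which gave 6345 features.

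Changes were estimated with lmFit and eBayes of limma 3.58.1 (R 4.3.3) on all features, with dye orientation as a term and 3 residual degrees of freedom. P-values are two-sided and adjusted by Benjamini-Hochberg. It was tested on 20 simulated data sets with 200 changed features, in which 7.57% of calls were false. The probe-number trend was removed by loess (span 0.3) in each array.

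Same-numbered cultures deviated together from their group means (r = 0.702, 0.478 and 0.427 across features), but number 1 marks the dye-swapped array in each group. Within the other orientation, culture 2 minus culture 3 correlated at −0.037 between groups, so the block was kept as an alternative. The labels call the 3 cultures of a group separate.

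Members and 14 further lists (80 names, 79 measured) were chosen with earlier results of these data known, so no list was tested as a set. Named were the 10 members, up to 3 called genes of each list in each direction, all genes of lists of 4 or fewer, SSA1, SSA2, SSA4, SSB1, HSP104, ZUO1 and HSF1, and the 3 genes most like YDJ1, SIS1 and JJJ1. BTN2, CUR1, STI1, MDJ1, PAM18, DPH2, DPH5, DFM1, HRD1, HRD3 and UBX2 were named after their values were seen. No reference sequence of these genes was used here.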

Additional observations from a re-analysis of the deposited data

How the results depend on the processing

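Of 150 changes of the 10 members under the 15 other settings with a test, 139 kept their side of the threshold. The exceptions were JJJ1 10 times and SIS1 against the pool alone. Fits without the dye-swapped 0% array, without the dye-swapped 6.5% array and over the arrays of normal dye orientation gave the same values. JJJ1 is thus counted repeatedly for 1 result. Taking each probe as a feature, or setting values at the limits to missing, left every member's change as it was. Fits that called few features could hardly add a member, so 139 of 150 overstates how stable the members were. Without the dye term 78 features and 0 members were called, with the replicate block 607 and 0, and after scaling to equal spread 307 and 0. Quantile normalization gave 484 features and 1 lower member, JJJ1 (adjusted p = 0.0452 by limma). Against the pool alone 2542 features, 1 higher member (SIS1) and 1 lower member (JJJ1, adjusted p = 0.00637 by limma) were called. With the trend removed, or over the arrays of normal dye orientation, 0 members were called lower. With 1 array left out, limma called between 2 and 1253 features, between 0 and 1 members lower and 0 higher, the lowest count being that without 6.5% culture 2 (1552 features at an unadjusted p under 0.05). The members' median lay between −0.01 and 0.26 in these fits. In settings added after seeing the data, with the trend removed and 1 array left out, limma called between 0 and 1104 features (1104 without either dye-swapped array, 238 and 394 without 0% culture 2 and 3, 24 without 6.5% culture 3, and 1353 at an unadjusted p under 0.05 where it was 0, without 6.5% culture 2) and 0 members, whose median lay between 0.15 and 0.55. With the trend removed and no dye term, 171 features and 0 members were called. Fits without an array have fewer samples, and the cause of these differences was not tested. Signal over background is unknown here.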
